A study of Mus with 4 samples.

Results

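Anxa1-lacking injured neurons were 308 of the 2554 neurons in the 2 CCI libraries, and 308 of the 37451 cell barcodes in all 4 libraries. They were chosen by their own UMI counts. A barcode counted as a neuron when fewer than 20% of its UMIs were mitochondrial, it held at least 8000 UMIs, and Snap25, Uchl1 and Tubb3 together had at least 20 UMIs and more than the glial genes Apoe and Fabp7. Members then needed at least 10 Sprr1a UMIs per 10,000 and at least 2 Atf3 UMIs, with fewer than 1 Anxa1, 1 Crh and 3 Pvalb UMIs per 10,000. Neurons of the same libraries with fewer than 10 Sprr1a UMIs per 10,000, here called neurons under the Sprr1a limit, were the comparison asked of these data, and numbered 2069. The nearest other class was the 119 Anxa1-positive injured neurons, which met the Sprr1a and Atf3 limits and held at least 1 Anxa1 UMI per 10,000.

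The CCI libraries came from L4 and L5 dorsal root ganglia (DRGs) of wildtype mice 3 d after chronic constriction injury, a model of neuropathic pain made by loosely ligating the sciatic nerve. The CON libraries came from naive wildtype mice, and each group had 2 libraries. The study's methods name male C57BL/6J mice for both groups, with DRGs taken at 8 weeks. The number of mice behind each library was not stated. Nothing shows that libraries came from separate mice, so p-values reflect only how far these libraries differ, which may be technical.

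DRG neurons are divided into subtypes by what they sense and release. Peptidergic nociceptors (PEP1) make substance P from Tac1 and CGRP from Calca. Non-peptidergic nociceptors carry Mrgprd (NP1), Mrgpra3 (NP2) or Nppb with Sst (NP3), of which NP2 and NP3 signal itch. C-fibre low-threshold mechanoreceptors (cLTMR) make Th, and myelinated neurons (NF) make the heavy neurofilament Nefh. When an axon is cut or crushed, the cell body starts a program led by the transcription factors Atf3 and Jun, with proteins of axon growth such as Gap43 and Sprr1a, and the products that mark its subtype are known to decline.

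Total UMIs were 135009606 and 113530798 in the CCI libraries and 75599766 and 52074235 in the CON libraries. Members held a median of 71250 and 74350 UMIs in CCI replicates 1 and 2, against 47530 and 66840 in neurons under the Sprr1a limit. Pairs of libraries shared between 12 and 31 cell barcodes, and no barcode of a member was shared. Markers of 6 other cell types (Schwann cells, macrophages, neutrophils, fibroblasts, endothelial cells and pericytes) exceeded 5 UMIs per 10,000 in 14 members (9.21%) of replicate 1 and 22 (14.1%) of replicate 2, against 318 (22.5%) and 161 (24.5%) of the neurons under the limit.

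In CCI replicate 1, 152 members made up 9.20% of neurons (exact binomial interval 7.85 to 10.7%), and in replicate 2, 156 members made up 17.3% (14.9 to 19.9%). In each CON library 1 neuron met the rule, which was 0.106% of 939 neurons in replicate 1 and 0.405% of 247 in replicate 2. The CCI libraries did not overlap in their intervals, so the share differed between them beyond counting error, and it averaged 13.3% ± 5.74 (SD, n = 2). The share moved with the limits, to 5.57% and 13.8% at a Sprr1a limit of 20 per 10,000 and to 6.78% and 12.9% for neurons with 0 Anxa1 UMIs. With 2 libraries in each group no exact test can reach the threshold, and the intervals cover counting error only.

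The genes of the rule and the markers given for the class are described as levels with no test, since they chose the cells or named them. Sprr1a, a small proline-rich protein made by regenerating neurons, had a median of 25 and 46.3 UMIs per 10,000 in members of CCI replicates 1 and 2, against 0.157 and 0.103 in neurons under the limit. The limit cut a continuous range. The member just inside it held 10.1 in either replicate and the neuron just outside held 9.95 in replicate 1 and 9.86 in replicate 2, while 57 and 36 neurons lay between 5 and 10 and 38 and 18 members between 10 and 15. Atf3 removed only 1 and 2 neurons that had passed the Sprr1a limit.

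Anxa1, a calcium-dependent phospholipid-binding protein, was summed to 0.0924 and 0.0789 UMIs per 10,000 in members, against 14.4 and 9.99 in Anxa1-positive injured neurons and 0.255 and 0.128 in neurons under the limit. The name holds as a low level and not as absence, because 40 members in each library carried at least 1 Anxa1 UMI, with up to 11 and 10 in a cell. The members nearest the Anxa1 limit held 0.942 UMIs per 10,000 in either library, and the nearest Anxa1-positive neurons held 1.15 and 1.1.

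Gal, the neuropeptide galanin that axotomized sensory neurons make, was at 82.6 and 103 UMIs per 10,000 in members, 89.6 and 89.8 in Anxa1-positive neurons, and 11.9 and 10.7 in neurons under the limit. Single members ranged widely in Gal, with medians of 46.1 and 60.7 and upper quartiles of 130 and 188. Timp1, a metalloproteinase inhibitor, was at 0.818 and 1.32 in members, 0.493 and 0.438 in Anxa1-positive neurons, and 0.572 and 0.635 in neurons under the limit. Tnfaip6, a hyaluronan-binding protein, was at 0.0582 and 0.356 in members, 0.0225 and 0.312 in Anxa1-positive neurons, and 0.0884 and 0.127 in neurons under the limit. Timp1 was thus above both other classes in each library, whereas Tnfaip6 lay below the neurons under the limit in replicate 1. Gal set the members apart from neurons under the limit but not from Anxa1-positive neurons.

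**Figure D1:**
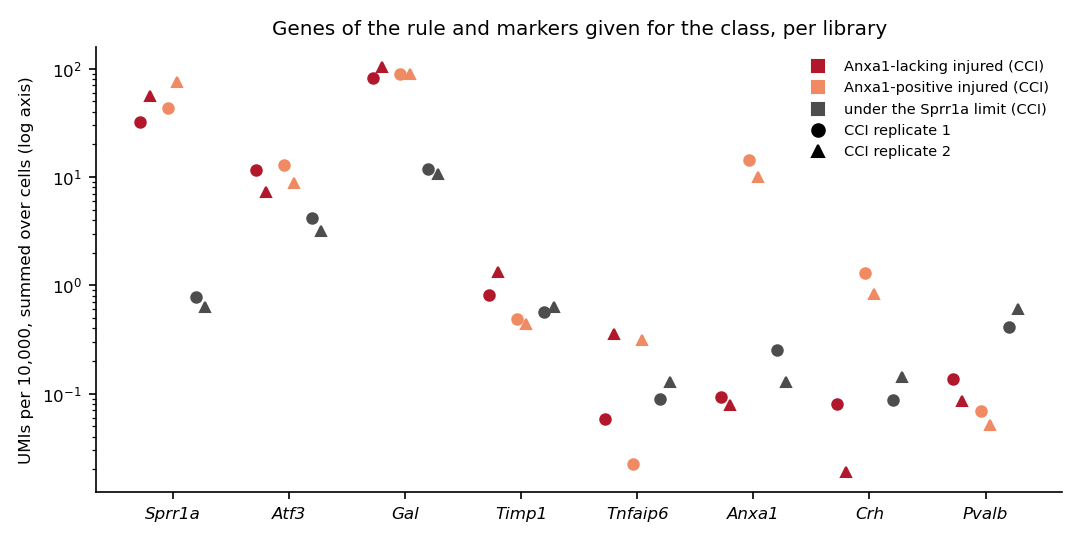
Summed UMIs per 10,000 (log axis) of the genes of the rule and of the markers given for the class, in Anxa1-lacking injured neurons, Anxa1-positive injured neurons and neurons under the Sprr1a limit. Each point is 1 CCI library. Gal stood at 82.6 and 103 in members and at 11.9 and 10.7 in neurons under the limit, while Tnfaip6 did not separate the classes in replicate 1.

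What remained of subtype identity was first counted cell by cell. Each cell was thinned to 8000 UMIs so that depth was equal, and a gene counted as carried at 2 or more UMIs. Glia-like barcodes, which should lack these genes, gave a guide to the background from free RNA. They held a median of 9866 and 9957 UMIs before thinning in CCI replicates 1 and 2. Members held far more, so thinning took a larger part of any free RNA from them. The shares in glia-like barcodes may therefore overstate the background of members.

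None of the 152 and 156 members carried Mrgprd, the receptor that defines NP1, which allows a share of up to 2.4% and 2.34%. In neurons under the limit Mrgprd was carried by 6.79% and 2.59%. Mrgpra3 and Sstr2 were likewise carried by no member, against 2.26% and 3.35% for Mrgpra3 and 4.39% and 5.49% for Sstr2, a somatostatin receptor, in neurons under the limit. These 3 receptor genes were therefore rare or undetected in members in both libraries, and their share in glia-like barcodes was 0 too. The intervals of members and of neurons under the limit met for Mrgprd in replicate 2 and for Mrgpra3 in both replicates. For Sstr2 they stayed apart in both.

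Nppb, a natriuretic peptide that relays itch, was carried by 1.97% and 2.56% of members, against 6.86% and 5.64% of neurons under the limit, with intervals that met in both libraries. Th, tyrosine hydroxylase, was carried by 0 and 1.28% of members, against 5.52% and 10.2%. Trpm8, the cold receptor, was carried by no member, against 1.63% and 0 of neurons under the limit, and the members' intervals covered these shares.

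Tac1 was carried by 20.4% and 20.5% of members, against 58.2% and 56.4% of neurons under the limit. The share in glia-like barcodes was 9.27% and 8.78%, and how much of the Tac1 in members was background was not measured. Nefh was carried by 44.7% and 57.7% of members, against 51.5% and 43.6% of neurons under the limit and 39.5% and 32.4% of glia-like barcodes. The order of the 2 classes turned between the libraries for Nefh. The background of Nefh in members was not measured, so no member was assigned to NF by Nefh alone. Nefh still counted among the defining genes below, and CON neurons with Nefh as their only defining gene made the NF mean profile. It was carried by 67.5% and 2.82% of CON glia-like barcodes, against 47.1% and 31.7% of CON neurons under the limit. How far background Nefh shaped these uses was not tested.

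In CCI replicate 1, 42.8% of members (interval 34.8 to 51.0%) carried none of the 8 defining genes, and in replicate 2, 32.7% (25.4 to 40.7%). The share was 50.8% and 51.8% in Anxa1-positive neurons, 55.1% and 62.4% in glia-like barcodes, 10.6% and 10.8% in neurons under the limit, and 6.18% and 7.72% in CON neurons under the limit. Members with 2 or more defining genes were 9.87% and 14.1%, against 41.0% and 33.5% of neurons under the limit. In both libraries the members' interval for no defining gene lay above that of neurons under the limit. The level of this share moved with the number of UMIs asked for, with 13.6% of members lacking all 8 genes at 1 UMI and 68.2% at 4 UMIs as means of the 2 libraries.

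**Figure D2:**
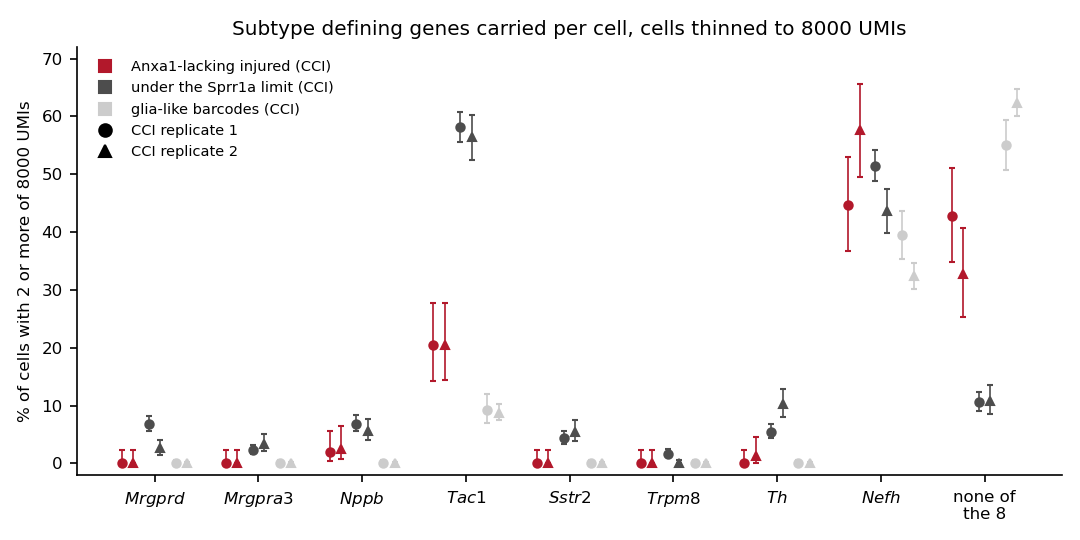
Percent of cells carrying each of the 8 subtype defining genes at 2 or more of 8000 UMIs, and percent carrying none, in Anxa1-lacking injured neurons, neurons under the Sprr1a limit and glia-like barcodes. Points are CCI libraries and bars are exact binomial 95% intervals. Tac1 was carried by 20.4% and 20.5% of members, against 58.2% and 56.4% of neurons under the limit.

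Identity was then read from many genes at once. Each neuron was given its nearest CON subtype, the 1 of 6 whose mean profile in CON it correlated with best over 297 genes, from which every listed gene, marker and gene of the rule was left out. Tac1, Mrgprd and the other defining genes chose the CON cells behind each mean but took no part in the correlation. No mean was made for neurons defined by Sstr2 or Trpm8, as 0 CON neurons carried either as their only defining gene. Such neurons could only be nearest to another subtype.

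Members were nearest to PEP1 in 49.3% and 55.1% of cells, to NF in 23.7% and 26.9%, and to NP1 in 21.1% and 10.9%. Neurons under the limit were nearest to PEP1 in 42.4% and 40.1%, to NF in 20.2% and 22.4%, and to NP1 in 20.7% and 15.9%. PEP1 thus came first in both classes and both libraries, and the members' share of it lay above that of neurons under the limit, although the intervals met in replicate 1. The PEP1 share was 52.4% and 58.9% in Anxa1-positive neurons, so its level was not particular to members. Only 6.35% and 7.14% of Anxa1-positive neurons carried Tac1. NF came next in members of both libraries, whereas NP1 and NF were near equal in neurons under the limit of replicate 1. The cLTMR profile was nearest in 1.97% and 0 of members, against 5.02% and 10.7% of neurons under the limit, with intervals that met in replicate 1. Without neurons that held markers of other cell types, the cLTMR shares were 1.45% and 0 of members, against 1.46% and 3.84%. The NP1 share of members depended on the assignment. With 100 in place of 50 genes per subtype it was 3.29% and 1.92%, against 18.7% and 15.2% of neurons under the limit, and PEP1 took 69.1% and 66.7% of members, against 47.1% and 42.7%.

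The resemblance itself was lower. The median of the best Pearson correlation was 0.644 and 0.638 in members, 0.608 and 0.58 in Anxa1-positive neurons, 0.726 and 0.766 in neurons under the limit, and 0.826 and 0.84 in CON neurons. The best subtype led the next by more than 0.05 in 65.8% and 69.2% of members, 36.5% and 44.6% of Anxa1-positive neurons, 87.0% and 94.4% of neurons under the limit, and 96.7% and 96.8% of CON neurons. Members therefore lay between Anxa1-positive neurons and neurons under the limit on both measures in both libraries. Part of the CON neurons supplied the mean profiles and the choice of genes, so the CON values are no independent benchmark. Among members that carried Tac1 as their only defining gene, 13 of 17 and 10 of 13 were nearest to PEP1. Among members that carried only Nefh, 25 of 53 and 34 of 68 were nearest to NF (47.2% and 50%), against 63.8% and 79.3% of such neurons under the limit.

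**Figure D3:**
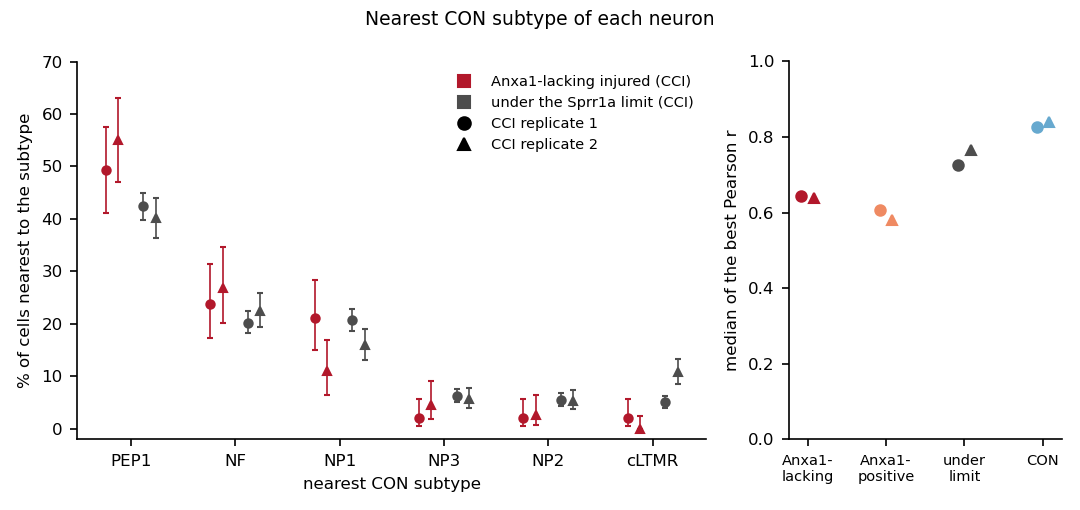
Left, percent of Anxa1-lacking injured neurons and of neurons under the Sprr1a limit nearest to each CON subtype, with exact binomial 95% intervals. Right, median over cells of the best Pearson correlation in 4 classes, 1 point per library. The median was 0.644 and 0.638 in members and 0.826 and 0.84 in CON neurons, part of which supplied the mean profiles.

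For tests across genes, each library's cells of a class were added into 1 sum, and values below are CPM, a gene's UMIs scaled to a common total by TMM so that sums of unequal depth can be set side by side. Against neurons under the Sprr1a limit, 2821 of 13416 genes (21.0%) were higher in members and 2876 (21.4%) were lower by edgeR's quasi-likelihood test with the library as a block (Benjamini-Hochberg adjusted p under 0.05). The median log2 fold change over all genes tested was -0.01. Both classes were split on Sprr1a in the same cells, so these counts describe genes that moved with it and are no independent evidence of injury. A sum also cannot tell fewer cells of a subtype from less RNA in each of its cells. With CCI replicate 1 left out 547 genes passed, and with replicate 2 left out 1376, in fits that have no block and 1 sum of members. Without the library block 3078 passed, and with every cell thinned to 8000 UMIs 2213 passed.

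Neuropeptides fell more often than they rose. Of 14 tested, 4 were higher and 7 were lower, with a median of -0.86. Tac1 had 132 and 321 CPM in members, against 1462 and 2171 in neurons under the limit, and its log2 fold change was -3.06 ± 0.32 (SE, edgeR adjusted p = 0.000124). Calca had 2170 and 3063 in members, against 5072 and 7615 (-1.27 ± 0.08, edgeR adjusted p = 8.3e-06). Calcb, the second CGRP gene, had 83.4 and 149, against 393 and 573 (-2.08). The members were below the neurons under the limit in both libraries for all 3 genes.

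Sst, somatostatin, had 3.51 and 1.43 CPM in members, against 29.6 and 50.5 (-3.95). Nppb had 20.2 and 40.2, against 116 and 137 (-2.13 ± 0.15, edgeR adjusted p = 1.95e-05). The neurotrophin Bdnf had 66.7 and 91.9, against 164 and 220 (-1.28), and the granin Scg2 150 and 183, against 444 and 569 (-1.60). Nts, the gene of neurotensin, went the other way with 561 and 558 in members, against 159 and 158 (1.82). Npy, neuropeptide Y, had 45.6 and 49.6, against 13.5 and 13.5 (1.79 ± 0.41, edgeR adjusted p = 0.00806). Its call was lost without the library block (edgeR adjusted p = 0.0554) and with DESeq2 (adjusted p = 0.0938). Npy came from few cells, since its median was 0 and 0.0824 UMIs per 10,000 in members while single members reached 58.9 and 41.2. Vgf and Ucn also rose. Adcyap1, the gene of PACAP, was at 449 and 335 in members, against 446 and 407, and did not pass.

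Marker genes of each nociceptor subtype were lower in members. All 4 PEP1 markers, all 4 NP1 markers and 4 of 6 NP3 markers fell, and none of these lists had a member that rose. Mrgprd had 1.95 and 1.22 CPM in members, against 35.4 and 16.3 (-4.0 ± 0.20, edgeR adjusted p = 3.63e-06), and the lysophosphatidic acid receptor Lpar3 2.34 and 5.41, against 44.3 and 34.4 (-3.35). Mrgpra3 had 3 and 0 UMIs in the member sums, against 1105 and 1336 UMIs in those of neurons under the limit. Per UMI that was 54.2-fold lower in replicate 1 (counting interval 18.6 to 263) and at least 110-fold lower in replicate 2, at a floor of 3 UMIs in the library. Trpv1, the capsaicin receptor of PEP1, had 48.2 and 63.5 in members, against 127 and 123 (-1.18), and the PEP1 marker Gpx3, a glutathione peroxidase, 71.1 and 110, against 131 and 256 (-1.05).

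Genes shared by the non-peptidergic subtypes split. Cd55, a complement inhibitor, had 32.5 and 34.1 CPM in members, against 251 and 220 (-2.82), and the GDNF family receptor Gfra2 12.4 and 13.9, against 80.1 and 105 (-2.81). Ret, the partner receptor of Gfra2, rose instead, with 346 and 385 in members, against 266 and 244 (0.52). P2rx3, an ATP-gated channel, had 24.3 and 13.7, against 16.4 and 10.3 (0.50). Of 3 cLTMR markers tested 2 fell and none rose. Th of the cLTMR had 7.60 and 5.61, against 48.3 and 87.2 (-3.32), and its glutamate transporter Slc17a8 0.487 and 0.102, against 4.22 and 6.63 (-4.13). The remaining marker, Tafa4, was higher in members among cells nearest to PEP1 (2.25, edgeR adjusted p = 2.08e-15). Among cells nearest to NF it did not pass (1.16, edgeR adjusted p = 0.108).

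All 5 NF markers tested fell, by less. Nefh had 238 and 310 CPM in members, against 336 and 387 in neurons under the limit (-0.40 ± 0.11, edgeR adjusted p = 0.0147). Ntrk3, the receptor for NT-3, had 39.5 and 34.6, against 60.9 and 71.2 (-0.85 ± 0.20, edgeR adjusted p = 0.00932). The neurons under the limit included cells above the Anxa1, Crh and Pvalb limits, which the rule kept out of the members. With the same Anxa1, Crh and Pvalb limits on both sides Nefh, at -0.13, and Spp1, at -0.62, no longer passed (edgeR adjusted p = 0.397 for Nefh and 0.0513 for Spp1). Without the library block neither Nefh nor Ntrk3 passed (edgeR adjusted p = 0.109 for Nefh and 0.0564 for Ntrk3). Nefl, Nefm and Prph, the light and medium neurofilaments and peripherin, were at 1921 and 2028, 663 and 599, and 3850 and 3717 in members, and did not pass. In neurons under the limit they were at 2146 and 2204, 704 and 602, and 3750 and 4114.

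Ion channels were lower as a group. Of 10 sodium channel genes 8 fell and none rose, with a median of -1.21. The nociceptor channels led. Scn11a, Nav1.9, had 25.7 and 21.2 CPM in members, against 192 and 149 (-2.86 ± 0.10, edgeR adjusted p = 1.24e-06), and Scn10a, Nav1.8, 43.8 and 37.1, against 216 and 194 (-2.35). Scn1a, Nav1.1 of myelinated neurons, had 2.92 and 5.61, against 20 and 20.5 (-2.27). Scn9a, Nav1.7, remained the most abundant pore gene of the 3 nociceptor channels in members, with 146 and 105, against 245 and 212 (-0.88). Scn3a had 8.19 and 5.61, against 9.11 and 8.09, and did not pass.

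Of 25 potassium channel genes 20 fell and 3 rose, with a median of -1.65. Among the largest falls were partners of the A-type channels, with Dpp10 at 5.95 and 5.51 CPM in members, against 41.8 and 49.9 (-2.99 ± 0.16, edgeR adjusted p = 5.2e-06), Kcnip2 at 6.24 and 6.73, against 43.6 and 49.5 (-2.84), and the pore gene Kcnd3 at 6.92 and 4.38, against 32.4 and 44.6 (-2.75). The delayed rectifiers Kcna2 and Kcnb2 fell by 2.36 and 2.07 on the log2 scale. Among those that rose were the M-current gene Kcnq3 (1.04) and the large-conductance channel Kcnma1 (0.49).

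Of 18 genes of calcium, HCN and TRP channels with related sensory channels, 10 fell and 2 rose, with a median of -0.72. Cacna2d1, the calcium channel subunit that binds gabapentin, had 1072 and 798 CPM in members, against 431 and 303 (1.36 ± 0.07, edgeR adjusted p = 4.53e-06), and stood against the fall of its relative Cacna2d2 (-2.11). Trpa1, the irritant receptor, fell by 2.02 and Piezo2, the touch channel, by 1.04.

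Of 22 sensory receptor genes, mainly G protein-coupled, 15 fell and 2 rose, with a median of -1.41, which the bound for Mrgpra3 in place of its fitted value leaves as it is. Sstr2 had 0.78 and 1.43 CPM in members, against 16.6 and 23.2 (-4.18 ± 0.21, edgeR adjusted p = 8.48e-06). The mu opioid receptor Oprm1 had 0.39 and 1.53, against 6.73 and 4.67 (-2.58). Cckbr, the cholecystokinin B receptor, had 24.8 and 26.2, against 6.16 and 3.08 (2.48), and Sstr1, another somatostatin receptor, 3.51 and 1.63, against 0.958 and 0.741 (1.56). Sstr1 stayed scarce in both classes. Npy1r and Npy2r, receptors for neuropeptide Y, did not pass.

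Of 20 transcription factors of sensory subtypes 13 fell and 2 rose, with a median of -0.87. Etv1, which is needed by proprioceptors, had 4.29 and 4.38 CPM in members, against 55 and 65.1 in neurons under the limit (-3.79 ± 0.14, edgeR adjusted p = 2.34e-06). Ldb2, a LIM domain binding factor, had 22.6 and 17.3, against 126 and 121 (-2.65), and Bcl11b 2.92 and 4.79, against 15.3 and 15.3 (-2.01). Runx3, which directs proprioceptor fate, had 0.487 and 0.306, against 2.13 and 3.42 (-2.75), and did not pass with the same limits on both sides (-1.41, edgeR adjusted p = 0.0874). Factors shared by most sensory neurons fell by less. Isl1 fell by 0.90, Pou4f1 by 0.62 and Tlx3 by 0.59, while Klf7 (0.24) and Onecut2 (0.59) rose.

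Of 16 trophic factor receptors 4 rose and 8 fell. Gfra3, the artemin receptor, had 298 and 389 CPM in members, against 160 and 178 (1.01 ± 0.08, edgeR adjusted p = 3.3e-05), Gfra1 rose by 0.88, and Egfr, the epidermal growth factor receptor, had 3.80 and 6.32, against 0.722 and 0.966 (2.53). Ngfr, the low-affinity neurotrophin receptor, fell by 0.85. Of 15 synapse genes 8 fell and 2 rose, with Cplx2, a complexin, down by 1.88, Slc17a6, the main glutamate transporter, up by 0.48, and Vamp2 and Cplx1 not past the threshold.

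Growth genes were the opposite. Of 27 genes of growth and regeneration 24 rose and 1, the integrin Itga6, fell, with a median of 1.64. The list was chosen with earlier results of these data known, so this count is no independent evidence. Gap43 had 3098 and 3342 CPM in members, against 1063 and 969 in neurons under the limit (1.66 ± 0.08, edgeR adjusted p = 2.98e-06). Ecel1, an endopeptidase of injured neurons, had 69.2 and 67.9, against 10.7 and 8.99 (2.79), Tubb6, a beta-tubulin, 125 and 183, against 23.5 and 25.2 (2.63), and the orphan receptor Gpr151 83.2 and 98.3, against 16.7 and 12.5 (2.62). Sox11, a transcription factor of regenerating neurons, had 676 and 558, against 202 and 118 (1.98), whereas Jun had 590 and 416, against 431 and 355 (0.34). Neurons under the limit thus held most of the members' Jun level but little of their Ecel1, Tubb6 and Gpr151.

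Of 16 stress and cell death genes 12 rose and 1 fell, with a median of 0.86. Hspb1, a small heat shock protein, had 4602 and 4921 CPM in members, against 1536 and 1502 (1.65 ± 0.06, edgeR adjusted p = 2.34e-06). Cdkn1a, the p21 inhibitor of the cell cycle, rose by 1.60, Phlda1 by 1.82 and Chac1, which degrades glutathione, by 1.76, while Map3k12, the DLK kinase, fell by 0.42. Of 10 signals to other cells 2 rose and 5 fell. Csf1, the growth factor of microglia and macrophages, had 128 and 97.0, against 33.6 and 20.1 (2.09 ± 0.12, edgeR adjusted p = 7.45e-06), and its fellow ligand Il34 21.4 and 24.5, against 7.40 and 8.09 (1.56). Ccl2, a monocyte chemokine, had 6.24 and 25.2, against 26.8 and 89.0 (-1.97), and did not pass without the library block (edgeR adjusted p = 0.187). Alkal2, a ligand of ALK, fell by 1.75.

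**Figure D4:**
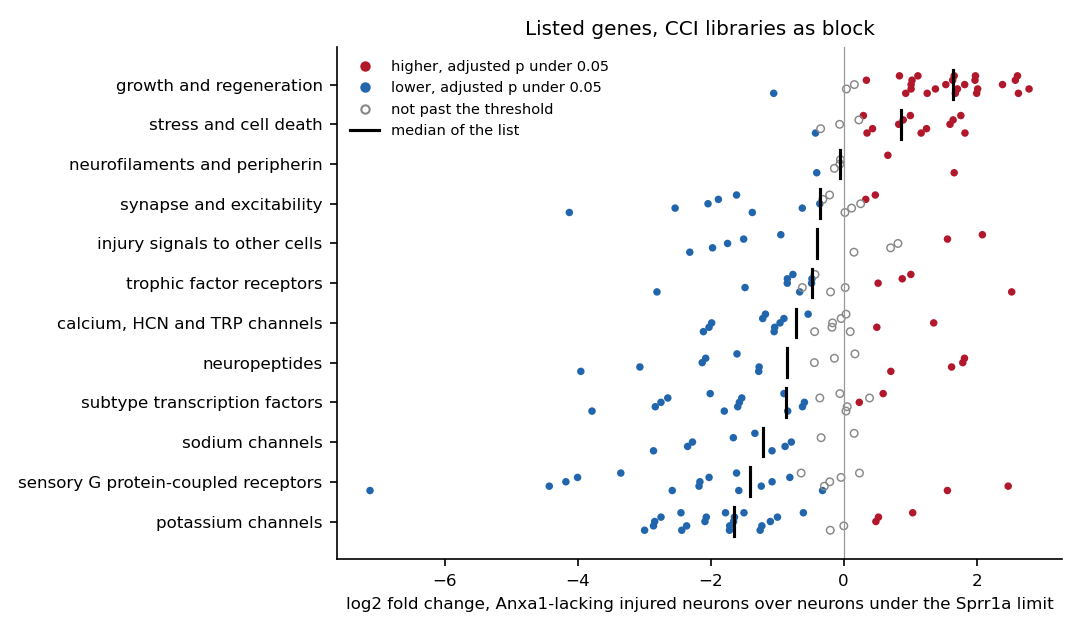
Log2 fold changes of single genes in 12 lists, Anxa1-lacking injured neurons against neurons under the Sprr1a limit. Each point is a gene, points past the edgeR threshold are marked apart, and bars are list medians, from 1.64 for growth and regeneration to -1.65 for potassium channels. The farthest point is Mrgpra3, whose fitted value depends on the prior count.

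Across all genes, the largest rise among the more abundant genes was Slc6a4, the serotonin transporter, with 61.0 and 38.7 CPM in members, against 5.81 and 4.09 (3.32 ± 0.10, edgeR adjusted p = 1.24e-06). Cryba2, Wfdc3, Inhbb, Pxdc1, Bcat1, Ecel1, Tubb6, Gpr151 and Fgf3 followed, between 3.19 and 2.58. Inhbb encodes an activin subunit, Bcat1 a transaminase of branched-chain amino acids and Fgf3 a fibroblast growth factor. The largest fall among these more abundant genes was Nrn1, neuritin, with 65.7 and 92.9, against 648 and 989 (-3.36 ± 0.33, edgeR adjusted p = 9.24e-05). Th, Rab27b, Paqr5, Tac1, Serpina3g, Acpp, Scn11a, Igfbp7 and Cd55 came next, between -3.32 and -2.82. Acpp, the acid phosphatase that marks non-peptidergic nociceptors, had 24.4 and 15.4, against 159 and 156 (-3.0). Serpina3g and Serpinb1a have near-identical relatives, and how their UMIs were divided is uncertain.

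Markers of other cells moved with this comparison. The endothelial markers Cldn5 and Flt1 summed to 0.0536 and 0.0704 UMIs per 10,000 in members, against 0.666 and 0.304 in neurons under the limit, and both fell by the test. The 3 fibroblast markers summed to 0.424 and 1.47, against 1.59 and 2.23, the 3 macrophage markers to 0.0148 and 0.617, against 0.114 and 0.351, and none of these 6 passed. The Schwann markers summed to 1.28 and 1.23, against 2.50 and 1.23, and Mbp fell. The neutrophil markers were at 0.037 and 0.0376, against 0.0522 and 0.151, and the pericyte markers at 0.257 and 0.142, against 0.619 and 0.891. The satellite glia markers, which include the gate genes Apoe and Fabp7, were at 8.31 and 8.33, against 6.10 and 5.89. With all neurons above 5 UMIs per 10,000 of the non-glial markers left out, a step added after the data had been seen, 2680 genes were higher and 2912 lower, and Cldn5 no longer passed (edgeR adjusted p = 0.413). Of the 5697 genes called before, 5057 passed again.

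The same comparison was made among cells of 1 nearest subtype, which separates the make-up of the classes from levels within a subtype as far as the assignment goes. Of PEP1-nearest cells there were 75 and 86 members and 599 and 263 neurons under the limit. Of 13198 genes 3006 (22.8%) were higher and 3012 (22.8%) lower. These fits rest on 1 residual degree of freedom for each gene and a spread borrowed across genes, and without the library block 2364 genes passed.

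All 4 PEP1 markers were lower in the PEP1-nearest members, with a median of -1.77. Tac1 had 220 and 441 CPM in members, against 3454 and 5566 (-3.81 ± 0.08), Calca 2777 and 4034, against 9194 and 14860 (-1.80 ± 0.07), and Trpv1 76.2 and 87.3, against 258 and 284 (-1.73). Sstr2 had 1.66 and 2.10, against 42.7 and 62.9 (-4.81). Neurons defined by Sstr2 had no CON profile of their own, so for Sstr2 this fit cannot tell make-up from level. Bdnf had 66.2 and 95.6, against 242 and 396 (-1.96). The members were below the neurons under the limit in each library for these 5 genes. Nts had 267 and 425, against 46.3 and 103 (2.28), and Adcyap1 650 and 418, against 1009 and 1011 (-0.95).

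Of 10 sodium channel genes 7 fell in PEP1-nearest members, among them Scn10a with 41.7 and 29.9 CPM, against 148 and 170 (-2.16), and 16 of 24 potassium channel genes fell. Of 27 growth genes 23 rose, with a median of 1.37, and Gap43 had 3889 and 4245, against 1783 and 1677 (1.23). Prph was at 3829 and 4145, against 3719 and 4313, and Nefh at 181 and 185, against 212 and 152, and neither passed. Of the 10 largest falls 4 (Caly, Igfbp7, Tmem100 and Zcchc12) were genes used to assign the subtype, and the others were Cldn5, Sstr2, Tac1, Gprasp2, Serpina3g and Car8. Markers of other cells moved with this comparison too. Both endothelial markers and all 3 fibroblast markers were lower, with Cldn5 at 7 and 0 UMIs in the member sums and the fibroblast gene Dcn at 44.2 and 52.6 CPM in members, against 278 and 321 (-2.63). The macrophage marker C1qa and the pericyte marker Rgs5 were higher. Without neurons that held such markers 5065 genes passed.

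Of NF-nearest cells there were 36 and 42 members and 286 and 147 neurons under the limit. Of 11888 genes 786 (6.61%) were higher and 884 (7.44%) lower, and 452 passed without the library block. Of 5 NF markers tested 4 fell, with a median of -1.0. Nefh had 660 and 1003 CPM in members, against 1516 and 1754 (-1.0 ± 0.20, edgeR adjusted p = 0.0145), and Ntrk3 86.1 and 116, against 224 and 214 (-1.12, edgeR adjusted p = 0.00856). Neither passed without the block (edgeR adjusted p = 0.121 for Nefh and 0.0537 for Ntrk3). Etv1 had 3.67 and 6.10, against 74.5 and 82.0 (-4.0), Kit, the stem cell factor receptor, 3.67 and 4.27, against 54.7 and 55.3 (-3.79), and Kcna2 16.5 and 31.1, against 158 and 176 (-2.84). The members were lower in both libraries for all 5 genes. The rule kept cells above the Pvalb limit out of the members only, and Pvalb itself, a gene of proprioceptors, was at 37.9 and 34.8 CPM, against 203 and 331. With the same Anxa1, Crh and Pvalb limits on both sides, a fit added after the data had been seen, 1222 genes passed and 3 of the 5 NF markers fell. In that fit Etv1 was at -1.6 and Nefh at -0.79, and neither passed (edgeR adjusted p = 0.0954 for Etv1 and 0.0743 for Nefh), while Ntrk3, Kit and Kcna2 still did.

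In NF-nearest members 21 of 27 growth genes rose and none fell, with a median of 1.26, and 16 rose with the same limits on both sides. Npy had 230 and 220 CPM in members, against 63.5 and 46.1 (2.05 ± 0.19, edgeR adjusted p = 0.000667), Nts 758 and 387, against 123 and 122 (2.15), and Gfra3 127 and 111, against 27.4 and 17.7 (2.42). In PEP1-nearest members Npy was at 6.43 and 19.0, and NF-nearest cells held 377 of the 468 Npy UMIs of the class in replicate 1 and 360 of 486 in replicate 2. Nefl was at 4244 and 4083, against 4163 and 4680, and did not pass. Hba-a2, a haemoglobin gene of red cells with a near-identical copy, stood at 13.4 and 793 in members, against 7.18 and 22.8, and so rested on replicate 2. The smooth muscle genes Tagln and Acta2, with 120 and 21.2 and 114 and 17.9 in neurons under the limit, were at 1.22 and 0 and 3.05 and 0.61 in members. Of markers of other cells, 2 of 3 Schwann, both macrophage and both neutrophil markers tested were also lower in NF-nearest members, and without neurons that held such markers 1953 genes passed.

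Whether PEP1-nearest and NF-nearest cells differed in these changes was tested as an interaction, added after the data had been seen. Of 13256 genes 169 (1.27%) passed, and of the 218 listed genes tested 27 passed. Tac1 had the difference of -4.03 (edgeR adjusted p = 0.0189), Trpv1 of -2.58, Bdnf of -1.93 and Gfra3 of -1.95, whereas Kit differed by 3.17. For Gfra3 the difference was one of size, since it rose in both, by 0.45 in PEP1-nearest and 2.42 in NF-nearest cells.

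NP1-nearest members numbered 32 and 17, which was too few in replicate 2 for a fit, and their values are CPM with no scaling. Mrgprd was at 4.89 and 8.97 in members, against 131 and 80.3 in NP1-nearest neurons under the limit, Scn11a at 34.9 and 64.3, against 392 and 291, and Cd55 at 41.4 and 123, against 682 and 692. Ret was at 304 and 372, against 388 and 353. Gal was at 4470 and 6400, against 537 and 365, and Gap43 at 2150 and 1770, against 307 and 175. Members thus lay below in Mrgprd, Scn11a and Cd55 and above in Gal and Gap43 in both libraries, while the order for Ret turned between them. Most of these cells were not NP1-nearest under other settings, as 5 and 3 members were with 100 genes per subtype and 8 and 6 where the best profile had to lead by 0.05.

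**Figure D5:**
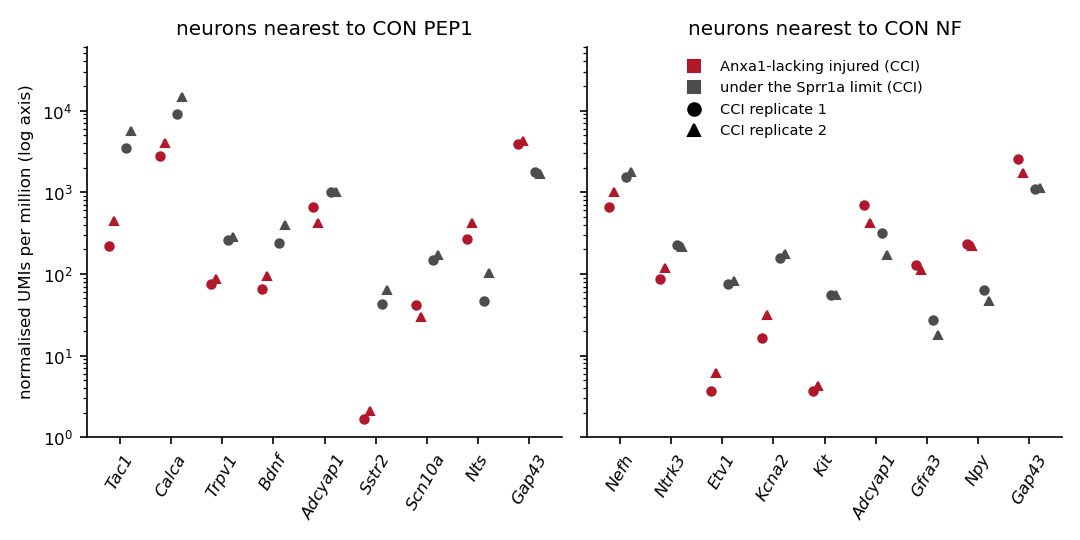
TMM-scaled CPM (log axis) of chosen genes in PEP1-nearest and NF-nearest cells, Anxa1-lacking injured neurons beside neurons under the Sprr1a limit, 1 point per CCI library. In PEP1-nearest cells Tac1 was at 220 and 441 in members and at 3454 and 5566 in neurons under the limit.

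Against Anxa1-positive injured neurons fewer genes passed than against neurons under the limit. The Anxa1-positive sums held 63 and 56 cells, against 1413 and 656 for neurons under the limit. How far this lowered the count was not tested. Of 13416 genes 380 (2.83%) were higher in members and 161 (1.20%) lower by edgeR's quasi-likelihood test, with a median over all genes of 0.00. All 4 PEP1 markers, 7 of 14 neuropeptides, 7 of 22 sensory receptors and 7 of 16 trophic factor receptors were higher, and none of these lists had a member that was lower. The list medians were 2.12, 1.95, 0.98 and 0.42. Anxa1-positive neurons and neurons under the limit were each set against the same member sums, so the comparisons are not independent.

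Calca had 2170 and 3063 CPM in members, against 575 and 703 in Anxa1-positive neurons (2.02 ± 0.08, edgeR adjusted p = 8.22e-06). Adcyap1 had 449 and 335, against 97.8 and 66.9 (2.25 ± 0.10, edgeR adjusted p = 2.11e-05), Scg2 150 and 183, against 23.4 and 34.5 (2.54), and Tac1 132 and 321, against 55.4 and 30.5 (2.22 ± 0.37, edgeR adjusted p = 0.0143). Npy1r had 60.4 and 85.9, against 4.85 and 3.24 (4.12 ± 0.24, edgeR adjusted p = 8.68e-05), and Trpv1 48.2 and 63.5, against 15.2 and 18.3 (1.74). For all 6 genes the members lay above the Anxa1-positive neurons in both libraries. Nppb had 207 and 394 UMIs in the member sums, against 3 and 4 in those of Anxa1-positive neurons, which was 34.0-fold higher in replicate 1 (counting interval 11.6 to 165). That interval takes no account of how UMIs were spread over cells, and Nppb came from few cells. In thinned cells 1.97% and 2.56% of members carried it. No Anxa1-positive neuron did, but the intervals reached 5.69% and 6.38% and so covered the members' shares. Sstr2 had 8 and 14 UMIs, against 0 and 0.

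Growth genes were near one another, as 1 of 27 was higher (Gap43, 3098 and 3342 CPM in members, against 2221 and 2375, 0.49) and 2 were lower (Camk1 and Marcksl1), with a median of -0.13. Ecel1 was at 69.2 and 67.9, against 78.6 and 110, and did not pass. Among the genes lower in members, Tspo, a mitochondrial outer membrane protein, had 108 and 99.2, against 190 and 216 (-0.97), Ina, alpha-internexin, 127 and 72.8, against 201 and 170 (-0.93), and Kcnmb4, a subunit of the large-conductance potassium channel, 152 and 141, against 260 and 321 (-0.98). With CCI replicate 1 left out 2 genes passed, and with replicate 2 left out 87. Without the library block 63 passed, and in thinned cells 40.

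Against CON neurons 2266 of 14017 genes (16.2%) were higher in members and 2418 (17.3%) lower. Growth genes rose in 24 of 27 cases with a median of 3.30, and 8 of 10 sodium channels, 20 of 26 potassium channels, 15 of 23 sensory receptors and 13 of 20 subtype transcription factors fell. These lists too were chosen with earlier results of these data known. Gpr151 had 86.6 and 102 CPM in members, against 1.06 and 1.24 in CON neurons (6.36 ± 0.24, edgeR adjusted p = 1.79e-06), and Gap43 3224 and 3472, against 464 and 294 (3.14). Npy had 47.5 and 51.5, against 0.0881 and 0.0336 from 4 and 1 UMIs. Nts had 583 and 579, against 60.4 and 85.1 (3.00).

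Mrgprd had 2.03 and 1.27 CPM in members, against 89.5 and 47.8 in CON neurons (-5.37 ± 0.39, edgeR adjusted p = 2.51e-05), Etv1 4.46 and 4.56, against 99.5 and 89.8 (-4.39), and Scn11a 26.8 and 22.0, against 261 and 217 (-3.29). Tac1 had 137 and 334, against 1555 and 2125 (-2.97), and Calca 2257 and 3182, against 4868 and 6299 (-1.04). The members did not overlap with CON neurons for any of these 5 genes. Adcyap1 was higher than in CON neurons, with 467 and 348, against 243 and 230 (0.79 ± 0.19, edgeR adjusted p = 0.0133), and Il6, the gene of interleukin-6, had 9.13 and 25.1, against 0.925 and 0.637 (4.42). Nefh was at 247 and 322, against 337 and 294, and Prph at 4005 and 3861, against 3789 and 3750, and neither passed. Markers of other cells moved with this comparison as well. Of 3 macrophage markers 2 were higher in members (Cd74 with 6 and 452 UMIs, against 57 and 32 in CON neurons, so mainly in replicate 2), as were 2 of 3 fibroblast markers, while the Schwann gene Mbp, both neutrophil markers and the pericyte marker Rgs5 were lower. Without neurons that held such markers 4323 genes passed.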

How the data were processed

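Single-cell RNA sequencing was done with 10x Genomics droplets on L4 and L5 DRGs, with 2 CON and 2 CCI libraries. The authors trimmed reads with fastp, mapped them to the mm10 build in Cell Ranger, and deposited raw UMI counts per gene and barcode. Their processing notes also name CASAVA 1.8 and Seurat. The paper's methods give digestion with Liberase and papain, whereas the labels name collagenase. No doublet caller was run, and none of the authors' cell names were used.

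The members, gene lists and markers were chosen with earlier results of these data known. After 13 mitochondrial genes had been removed, UMIs were summed per library and class, in sums of at least 20 cells, and tested with edgeR 4.0.16 under R 4.3.3 (TMM, filterByExpr, quasi-likelihood, Benjamini-Hochberg, adjusted p under 0.05). Classes of the same CCI library were paired by a library block, since they come from the same suspension. Members were compared with CON neurons without a block. Genes of the rule, of the neuron gate and of the class markers were left out of tests and counts, and a few listed genes are counted but not reported by name. Levels are CPM after TMM scaling or UMIs per 10,000 as summed. Shares have exact Clopper-Pearson intervals from SciPy 1.17.1, and intervals and the floor of 3 UMIs cover counting error only. Named genes were the markers, up to 6 members per list (largest change past the threshold first) and the 10 largest changes per direction whose mean reached 5 log2 CPM and whose direction held in both libraries, without predicted or Riken genes. NP1, PEP1 and the other subtype names stand for nearest CON profiles and not for clusters.

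On simulated data with 200 changed genes, edgeR was tested for the comparisons with neurons under the limit and with CON neurons. The outcome is not given here, so no support for the calls is drawn from it. Other settings tried were upper-quartile factors, DESeq2 1.42.0, no filter, thinning to 8000 UMIs, other limits for members and references, no doublet-prone cells (the top 5% of UMIs), each library left out in turn, neurons with other cell types' markers left out and matched limits within nearest subtypes (both added after seeing the data), and fits with or without the block.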

Additional observations from a re-analysis of the deposited data

Results flagged for a closer look

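For 5 listed genes the members moved one way among PEP1-nearest cells and the other way among NF-nearest cells, each past the threshold in its own fit and in the interaction by edgeR's quasi-likelihood test. The difference, PEP1-nearest minus NF-nearest on the log2 scale, was -2.145 for Adcyap1 (-0.95 and 1.21 within the subtypes, edgeR adjusted p = 0.00773). It was -2.438 for Npy1r (-0.96 and 1.52, edgeR adjusted p = 0.0212) and -1.347 for Runx1 (-0.57 and 0.79, edgeR adjusted p = 0.0212). It was 2.167 for Casz1 (1.06 and -1.09, edgeR adjusted p = 0.0101) and 1.475 for Ntrk3 (0.33 and -1.12, edgeR adjusted p = 0.0192). Adcyap1 had 650 and 418 CPM in PEP1-nearest members, against 1009 and 1011 in PEP1-nearest neurons under the limit, and 691 and 419 in NF-nearest members, against 319 and 169. The members of both subtypes thus ended at like levels of Adcyap1, and the neurons under the limit differed. The signs held without the library block, but then none of the 5 genes passed among NF-nearest cells (edgeR adjusted p between 0.0537 for Ntrk3 and 0.133 for Adcyap1), and Casz1 and Ntrk3 did not pass among PEP1-nearest cells either. With the same Anxa1, Crh and Pvalb limits on both sides Runx1 no longer passed among NF-nearest cells (edgeR adjusted p = 0.0564). The interaction was added after the data had been seen. It rests on the nearest subtype, which was less certain in members. Their best profile led the next by more than 0.05 in 65.8% and 69.2% of cells, against 87.0% and 94.4% of neurons under the limit. Whether this shaped the opposite signs was not tested.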

How the results depend on the processing

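Counts of genes past the threshold depended most on the library block, on depth and on having both CCI libraries. Against neurons under the limit 5697 genes passed, with 3078 without the replicate block, 2213 in thinned cells and 547 to 1376 with a CCI library left out, where 63.4% and 67.7% of calls were lower in place of 50.5%. Against Anxa1-positive neurons 541 passed, with 63 without the replicate block (7.94% lower in place of 29.8%), 40 in thinned cells, 1314 with no filter on low counts, 294 with a Sprr1a limit of 20 per 10,000, 874 without neurons that held markers of other cell types, and 2 to 87 with a library left out. Against CON neurons 4684 passed, 1895 in thinned cells, 5902 with the replicate number as a block, and 3379 to 3981 with a library left out. Same-numbered CCI and CON libraries share a number only (correlation of deviations 0.165 over 14030 genes). In PEP1-nearest cells 6018 passed, with 2364 without the replicate block and 2001 thinned. In NF-nearest cells 1670 passed, with 452 without it, 483 thinned and 1007 with 100 genes per subtype. Members lacking all 8 defining genes were 13.6% at 1 UMI and 68.2% at 4 UMIs. Of the named genes, Ccl2 against CON neurons reversed, with 0.86 (not past the threshold) over all libraries, -0.20 without neurons with other cell types' markers and -0.46 without CCI replicate 2, with a range of -0.46 to 1.85 over the libraries left out. With a CCI library left out, 14 of 64 values of named genes against neurons under the limit and 18 of 28 against Anxa1-positive neurons no longer passed. The causes were not tested. Fits without a CCI library had 1 member sum, no block and CON neurons added, and assume that this sum varies like the others.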
